A study of Mus musculus with 6 samples.

Results

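The fibril-associated and microfibrillar collagens of the mouse aortic valve were followed from postnatal day 2 (PND2) to 4 months of age. They were taken as the rows of the deposited gene table that carry 10 gene symbols: Col6a1, Col6a2 and Col6a3 (collagen VI), Col8a1 (collagen VIII), Col9a1, Col9a2 and Col9a3 (collagen IX), Col12a1 (collagen XII), Col14a1 (collagen XIV) and Col16a1 (collagen XVI). All 10 were found among 46983 genes, and all 10 passed the filter on low values. Aortic valves came from wild type C57BL/6J mice at PND2 and at 4 months, with 3 RNA-seq libraries per age, and each library held the pooled valves of 5 to 6 mice. No transgene, Cre driver or treatment is part of either group. Levels are RPKM (reads per kilobase of exon, scaled by the authors to a fixed library total), and library totals were 38994657, 30518001 and 29260736 at PND2 and 37350916, 23810507 and 28943701 at 4 months.

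Collagens IX, XII, XIV and XVI do not form fibrils on their own. As background, they carry short triple helices broken by non-collagenous stretches and sit on the surface of fibrils made by collagens I, III, V and II, where they set fibril spacing and contacts with the surrounding matrix. Collagen VI, a heterotrimer of chains from separate genes, builds beaded microfilaments around cells, and collagen VIII forms short-chain networks best known from endothelia and vessel walls. In heart valves these proteins lie in a leaflet that is rich in proteoglycan after birth and layered in the adult.

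The chains share a repeat of glycine followed by 2 other residues, and the coding sequence shows it. Of 478 exon records of the 10 genes, 70 are exactly 54 bases long (14.6%), against 0.482% of 334698 exon records of protein-coding genes, and 42.5% against 12.7% have a length divisible by 9. A coding exon of 54 bases is shown here for each of 3 genes that fell with age and for Col14a1, which did not. Sequences are 5′ to 3′ from the GENCODE vM21 transcripts (GRCm38, the same assembly as mm10), and capitals mark the glycine codon that opens each triplet of codons (a glycine codon elsewhere in a triplet is in lower case).
Col9a1 exon 11 (chr1:24202014-24202067, plus strand): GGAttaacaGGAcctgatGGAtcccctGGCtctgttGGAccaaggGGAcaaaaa
Col9a2 exon 5 (chr4:121043696-121043749, plus strand): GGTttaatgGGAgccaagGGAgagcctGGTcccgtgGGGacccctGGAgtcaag
Col12a1 exon 55 (chr9:79614349-79614402, minus strand): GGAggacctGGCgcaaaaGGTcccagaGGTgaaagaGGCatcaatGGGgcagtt
Col14a1 exon 37 (chr15:55467960-55468013, plus strand): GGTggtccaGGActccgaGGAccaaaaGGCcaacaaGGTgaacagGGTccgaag
Each of the 4 exons is made of 6 triplets that open with a glycine codon. The chains differ in how much of the coding sequence is of this kind, counted as runs of 6 or more glycine triplets in the longest coding transcript. Such runs covered 85.9% of the codons of Col9a2 and 86.9% of Col9a3, 64.2% of Col9a1, 62.1% of Col8a1 and 60.4% of Col16a1. They covered 32.2% of Col6a1, 31.9% of Col6a2, 14.0% of Col14a1, 10.1% of Col6a3 and 8.22% of Col12a1. Col12a1 and Col14a1 hold the same number of such triplets in coding sequences of different length, with 84 triplets in 5 runs and a longest run of 32 triplets in both genes.

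Collagen VI was the most abundant of these collagens at both ages, and collagen IX was at the foot of the order at 4 months. At PND2 the 3 collagen VI genes summed to 615 ± 99.8 RPKM (SD, n = 3) and made up 64.0% ± 1.67 of the summed level of the 10 genes, and at 4 months 559 ± 68.6 RPKM and 66.7% ± 1.75. By mean level at PND2 the order was Col6a1, Col6a2, Col14a1, Col6a3, Col16a1, Col12a1, Col9a1, Col8a1, Col9a2 and Col9a3. The ranges of neighbouring genes overlapped except between Col6a1 and Col6a2, Col14a1 and Col6a3, and Col16a1 and Col12a1. At 4 months the order was Col6a1, Col14a1, Col6a2, Col6a3, Col16a1, Col8a1, Col12a1, Col9a3, Col9a1 and Col9a2. There Col6a1 stood apart from Col14a1, Col6a2 from Col6a3, Col6a3 from Col16a1 and Col8a1 from Col12a1, and the other neighbours overlapped. The place of Col6a2 depends on its length. Without its 2 longest exon records, an alternative chosen after seeing the data, it measured 250.9, 351 and 327 RPKM at PND2 and 330.1, 267 and 355 RPKM at 4 months, which overlaps Col6a1 and is above Col14a1 in every library at both ages.

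**Figure D1:**
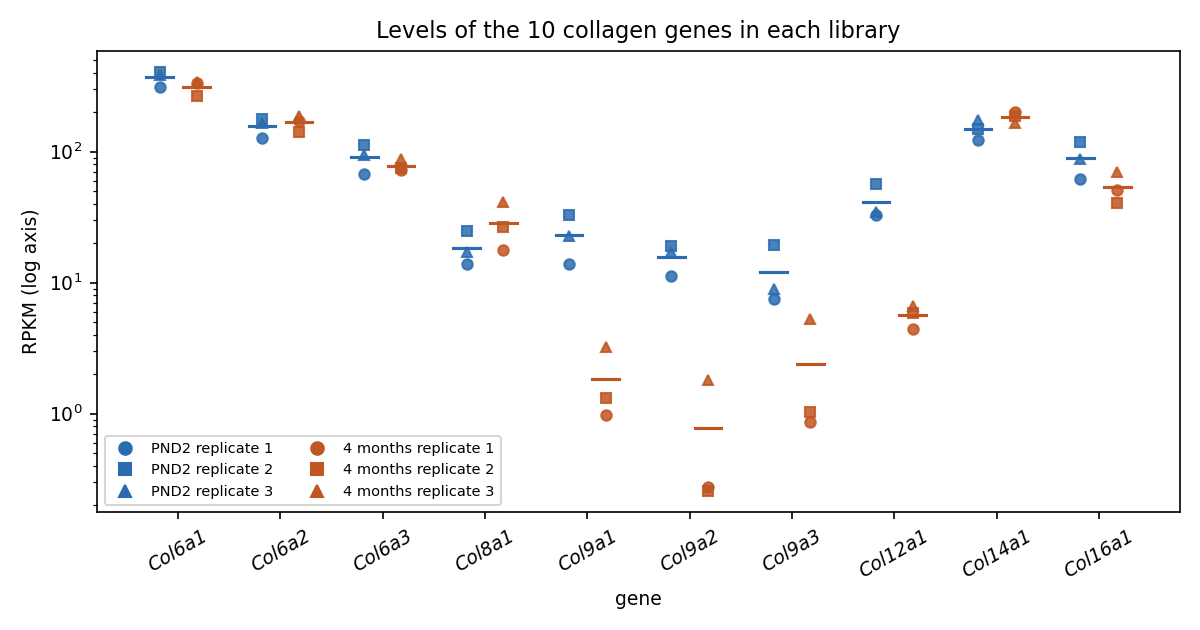
RPKM of the 10 collagen genes (log axis) in each of the 6 libraries, PND2 in blue and 4 months in orange, with marker shape for the replicate and a bar for the mean of the age. The ages are separate for Col9a1, Col9a2, Col9a3 and Col12a1 and overlap for the other 6 genes, and 4 months replicate 3 is the highest 4 month library for the 3 collagen IX genes.

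Between the ages, 4 of the 10 genes fell (Col9a1, Col9a2, Col9a3 and Col12a1) and 0 rose in limma at a Benjamini-Hochberg adjusted p under 0.05. Over all 25903 genes tested, 35.8% were called, 21.1% lower and 14.7% higher at 4 months, so 4 of 10 is close to the share among all genes. None of the 10 was higher at an unadjusted p under 0.05 in limma (0 genes), or at an adjusted p under 0.05 with voom (0 genes). The libraries of the ages did not overlap for 4 of the 10 genes, the same 4, against 50.0% of all genes tested. The median log2 fold change was -0.47 over the 10 genes and -0.14 over all genes tested. Scaling each library to its median gene moved the median of all genes to -0.016 and left the sign of all 10 fold changes as it was, but under that scaling 5 of the 10 were called, the fifth being Col14a1, higher at 4 months (0.44, limma adjusted p = 0.0305).

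All 3 collagen IX genes fell. This heterotrimer of 3 chains is best known as the partner of collagen II on cartilage fibrils. Its genes lie on separate chromosomes (mm10), Col9a1 (ENSMUSG00000026147) at chr1:24177610-24252684, Col9a2 (ENSMUSG00000028626) at chr4:121039385-121055322 and Col9a3 (ENSMUSG00000027570) at chr2:180597790-180622189. Col9a1 measured 13.9, 33.0 and 22.9 RPKM at PND2 and 0.977, 1.33 and 3.25 RPKM at 4 months. Every 4 month library lay below every PND2 library, with 4 months replicate 3 the highest of its age. The mean level was 12.6-fold lower at 4 months (23.2 ± 9.54 against 1.85 ± 1.22 RPKM, SD, n = 3), a log2 change of -3.67 (SE 0.47, limma adjusted p = 0.0013). Col9a2 measured 11.3, 19.0 and 17.2 RPKM at PND2 and 0.277, 0.258 and 1.82 RPKM at 4 months. The ages again did not overlap, and the 4 month values rested on 32, 19 and 163 reads. The mean was 20.2-fold lower (log2 change -4.61, SE 0.63, limma adjusted p = 0.0018). With a pseudocount of 1 in place of 0.1 the log2 change was -3.32 for Col9a2 and -3.09 for Col9a1. Col9a3 measured 7.50, 19.4 and 9.003 RPKM at PND2 and 0.862, 1.02 and 5.28 RPKM at 4 months. Here too the ages were separate, although 4 months replicate 3 came close to PND2 replicate 1. The mean was 5.01-fold lower (log2 change -2.62, SE 0.68, limma adjusted p = 0.0219).

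The levels of the collagen IX chains relative to each other were also compared. The Col9a2 to Col9a1 ratio was 0.815, 0.578 and 0.751 at PND2 and 0.283, 0.194 and 0.561 at 4 months, and the Col9a3 to Col9a1 ratio was 0.540, 0.589 and 0.394 at PND2 and 0.882, 0.773 and 1.63 at 4 months. The former was lower and the latter higher in every 4 month library. On the log2 scale the differences were -1.17 and 1.05 (exact permutation p = 0.1, the smallest this design allows, and adjusted 0.12 for each). From RPKM summed over the libraries of an age they were -0.68 and 1.33. The summed collagen IX level was 32.7, 71.4 and 49.0 RPKM at PND2 and 2.12, 2.61 and 10.3 RPKM at 4 months, where replicate 3 was far above the others.

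The call on Col9a3 depended on single libraries. Its adjusted p in limma was 0.0636 without PND2 replicate 2, 0.0594 without 4 months replicate 1 and 0.0658 without 4 months replicate 2, and 0.0036 without 4 months replicate 3. Without 4 months replicate 3 the log2 changes were -4.15 for Col9a1, -5.41 for Col9a2 and -3.41 for Col9a3, each larger in size than with it. The form of test in the study's methods, which takes each gene alone with unequal variances, was also run on the values used here. It kept Col9a1 but gave an adjusted p of 0.0868 for Col9a2 and 0.155 for Col9a3. The study itself floored low values. It gave a total of genes at an FDR under 0.1, and its gene ontology analysis took an FDR under 0.05 with a fold change limit.

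That library was also the highest 4 month library for 6 of 10 cartilage marker genes. Col2a1, the fibril-forming collagen of cartilage, measured 1.52, 5.37 and 2.35 RPKM at PND2 and 0.464, 0.756 and 16.6 RPKM at 4 months, so that 4 months replicate 3 was the highest of all 6 libraries and the other 4 month libraries the lowest. The 10 cartilage marker genes, all of them in the table, summed to 108, 187 and 100.4 RPKM at PND2 and 210.3, 348 and 715 RPKM at 4 months. Without Comp, a choice made after its values were seen, the other 9 summed to 101, 173 and 88.8 RPKM at PND2. At 4 months they summed to 31.6, 39.96 and 72.2 RPKM, all 4 month libraries below all PND2 libraries. Comp, a pentameric matrix protein that binds collagens and is also made by tendon and other connective tissue, measured 179, 308 and 642 RPKM at 4 months and was the most abundant of them there, whereas at PND2 Acan was (57.2, 129 and 58.2 RPKM). Acan, the large cartilage proteoglycan, measured 7.36, 10.9 and 16.6 RPKM at 4 months, Sox9, the transcription factor of cartilage cells, 7.54, 8.25 and 14.6 RPKM, and Cnmd 2.77, 2.60 and 8.85 RPKM. In these 3 genes, as in Col2a1, Comp and Matn3, replicate 3 was the highest of its age. It was not the highest for Hapln1 (7.96, 11.5 and 9.66 RPKM), Sox6 (3.92, 4.34 and 4.18 RPKM) or Sox5, and Matn1 was listed at 0 in the 4 month libraries. Of the 8 markers tested, Comp and Sox6 rose, Acan and Hapln1 fell, and 4 were not called, against 14.7% higher and 21.1% lower over all genes tested. Matn1, a matrilin found almost only in cartilage, was listed at 0 in 5 libraries and at 0.0512 RPKM in PND2 replicate 3, and Matn3 reached at most 0.275 RPKM. The part of cartilage-type cells in the collagen IX levels was not tested. In bulk valves, fewer cells of a type and less RNA per cell cannot be told apart.

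Col9a1 has a pair of start sites, and the exon records tell its transcripts apart. As background, the long form begins upstream with exons that encode an N-terminal globular domain and is the form of cartilage, whereas the short form starts downstream and lacks that domain. The 250 bases before each RefSeq start are shown because reads differed between the forms (RefSeq windows, GRCm38.p6, 5′ to 3′, plus strand), with a CCAAT match in capitals.
Col9a1 long form (chr1:24177360-24177609): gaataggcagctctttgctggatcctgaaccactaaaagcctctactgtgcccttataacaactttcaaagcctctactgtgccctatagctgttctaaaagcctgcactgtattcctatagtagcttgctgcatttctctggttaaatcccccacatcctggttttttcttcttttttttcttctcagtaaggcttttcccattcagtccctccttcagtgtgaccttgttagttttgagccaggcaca
Col9a1 short form (chr1:24194953-24195202): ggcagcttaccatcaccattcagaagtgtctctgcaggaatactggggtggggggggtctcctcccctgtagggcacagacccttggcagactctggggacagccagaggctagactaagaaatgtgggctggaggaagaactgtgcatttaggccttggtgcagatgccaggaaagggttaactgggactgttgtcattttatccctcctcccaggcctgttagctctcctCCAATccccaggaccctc
Neither window holds a CG dinucleotide, against a median of 6 over 32851 RefSeq windows of this length, and the G+C content is 43.6% and 56.0%. The RefSeq start of the short form lies inside the first exon of the deposited table, so the last bases of its window are part of that exon, and the CCAAT match spans the exon's first base. Motifs were searched on both strands. The letters TATAAA were in neither window and in 12.4% of all windows, and CCAAT was in the short form's window and in 33.8% of all. Neither GGGCGG, present in 32.7% of all windows, nor AACAAT, present in 9.42%, was found here.

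At PND2 the reads lay on the short form, and at 4 months they were few on both forms. The first exon of the short form (chr1:24195187-24195457) held 119, 272 and 154 reads at PND2, or 11.3, 32.9 and 19.4 RPKM, and 9, 14 and 16 reads at 4 months, or 0.889, 2.17 and 2.04 RPKM. The 6 exons found only upstream in the long form, 1025 bases in all, held 0 reads in the 3 PND2 libraries and in 4 months replicates 1 and 2. A count of 0 allows up to 3 reads, or 0.0751, 0.0959 and 0.100 RPKM at PND2 and 0.0784 and 0.123 RPKM in those 4 month libraries. In 4 months replicate 3 the upstream exons held 22 reads (0.742 RPKM), 17 of them in exon 5 and 4 in exon 6. Per length this was below the short form's first exon in the same library (2.04 RPKM). The long form was thus detected in 1 of 6 libraries, the one with the high Col2a1 value. Limits cover counting error only. The exon test took genes with at least 1 RPKM in every library, which no collagen IX gene reached, so this contrast is given without one.

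Col12a1 fell and Col14a1 did not. Both encode long fibril-associated chains built mostly of fibronectin type III and von Willebrand factor A domains, and both bind at the surface of collagen I fibrils. Col12a1 (ENSMUSG00000032332) lies at chr9:79598991-79718831 and Col14a1 (ENSMUSG00000022371) at chr15:55307750-55520803. Col12a1 measured 32.6, 56.7 and 34.7 RPKM at PND2 and 4.40, 5.85 and 6.68 RPKM at 4 months. All 4 month libraries were below all PND2 libraries, the closest values of the ages being 6.68 and 32.6 RPKM. The mean was 7.34-fold lower at 4 months (41.4 ± 13.4 against 5.64 ± 1.16 RPKM, SD, n = 3), with a log2 change of -2.83 (SE 0.24, limma adjusted p = 0.00028). The fall was called under all 16 alternative settings run for the gene test. Col14a1 measured 122, 149 and 175 RPKM at PND2 and 200.5, 189 and 165 RPKM at 4 months. The ages overlapped through 4 months replicate 3, and the log2 change of 0.32 (95% interval -0.024 to 0.67, limma adjusted p = 0.133) was not called. As given above, it passed with libraries scaled to their median gene.

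The share of Col12a1 in the sum of these chains was lower in every 4 month library than in any PND2 library. Col12a1 made up 21.1, 27.5 and 16.6% of the summed level of Col12a1 and Col14a1 at PND2 and 2.15, 3.01 and 3.89% at 4 months. The mean share was 21.7% ± 5.49 against 3.01% ± 0.872 (SD, n = 3), with no overlap. The log2 ratio of Col12a1 to Col14a1 dropped by 3.17 at 4 months (means -1.88 and -5.05, exact permutation p = 0.1, 0.12 adjusted over the 12 ratios). With 3 libraries against 3 the smallest 2-sided p of this test is 0.1. Against Col1a1, a chain of the fibril-forming collagen I, Col12a1 dropped by 1.99 on the log2 scale and Col14a1 was higher by 1.19. Against Col3a1 the differences were -2.08 and 1.09, and for all 4 of these ratios the ages did not overlap.

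**Figure D2:**
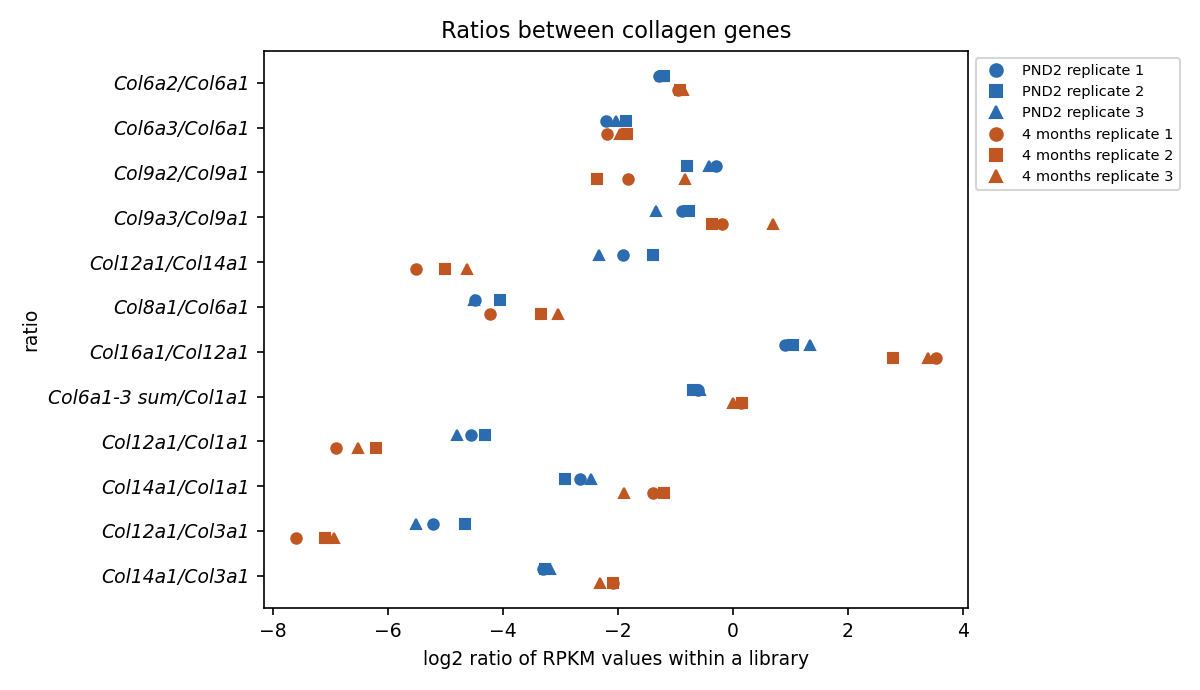
Log2 of the ratio of 2 RPKM values within a library (horizontal axis) for the 12 ratios compared (vertical axis), with 1 marker per library, PND2 in blue and 4 months in orange. The ages are separate in 10 of the 12 ratios, and the Col12a1 to Col14a1 ratio has the widest gap between means, -3.17 on the log2 scale. Several of the separate ratios hold Col12a1, whose own level separates the ages, as do 50.0% of all genes tested. The share among ratios of other genes was not computed.

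Col16a1 (ENSMUSG00000040690, chr4:130047840-130099283), a fibril-associated chain with many short triple-helical stretches, measured 61.5, 118 and 88.0 RPKM at PND2 and 51.1, 40.4 and 69.9 RPKM at 4 months. Its ages overlapped, since 4 months replicate 3 exceeded PND2 replicate 1. The log2 change of -0.71 (SE 0.27, 95% interval -1.35 to -0.07) did not pass (limma adjusted p = 0.0809), whereas it did without PND2 replicate 1 (-0.95, adjusted p = 0.029) and with voom on the recovered reads (adjusted p = 0.0472). Relative to Col12a1, Col16a1 was higher by 2.14 on the log2 scale at 4 months, with mean ratios of 2.16 ± 0.334 at PND2 and 9.67 ± 2.46 at 4 months (SD, n = 3) and no overlap (exact permutation p = 0.1, adjusted 0.12). Col8a1 (ENSMUSG00000068196, chr16:57624258-57754737), a collagen VIII chain, measured 13.8, 24.6 and 17.1 RPKM at PND2 and 17.9, 26.4 and 41.6 RPKM at 4 months. Its ages overlapped, and a change was not detected (log2 0.58, 95% interval -0.18 to 1.35, limma adjusted p = 0.21).

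For the 3 collagen VI chains no change in level was called. Col6a1 (ENSMUSG00000001119, chr10:76708792-76726168) and Col6a2 (ENSMUSG00000020241, chr10:76595762-76623630) are neighbours on chromosome 10, and Col6a3 (ENSMUSG00000048126) lies at chr1:90765923-90843971. Col6a1 measured 310.1, 407 and 387 RPKM at PND2 and 333, 267 and 342 RPKM at 4 months (log2 change -0.23, 95% interval -0.58 to 0.12, limma adjusted p = 0.278). Col6a2 measured 127, 177 and 165 RPKM at PND2 and 172, 141 and 187 RPKM at 4 months (log2 change 0.10, 95% interval -0.27 to 0.48, limma adjusted p = 0.66). Col6a3, the longest of the chains, measured 67.1, 112 and 94.4 RPKM at PND2 and 72.7, 74.8 and 87.6 RPKM at 4 months (log2 change -0.19, 95% interval -0.64 to 0.25, limma adjusted p = 0.467). The ages overlapped for each, with PND2 replicate 1 the lowest of its age in all 3. Against Col1a1, which fell, the summed collagen VI level was higher at 4 months in every library. The ratio was 0.646 ± 0.0285 at PND2 and 1.07 ± 0.0626 at 4 months (SD, n = 3, log2 difference 0.73, exact permutation p = 0.1, adjusted 0.12).

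Within collagen VI, the Col6a2 to Col6a1 ratio was 0.409, 0.434 and 0.426 at PND2 and 0.518, 0.529 and 0.546 at 4 months. The ages did not overlap, and the difference of 0.33 on the log2 scale (exact permutation p = 0.1, adjusted 0.12) compares with an SD of 0.043 at PND2 and 0.038 at 4 months. The Col6a3 to Col6a1 ratio did not separate the ages (0.245 ± 0.0298 and 0.252 ± 0.0310, SD, n = 3, exact permutation p = 0.7). The Col6a2 RPKM is taken over all of its exons, which include 2 long records of 2059 and 2357 bases. Without these records the ratio was 0.839 ± 0.027 at PND2 and 1.01 ± 0.0248 at 4 months, and the difference was 0.27 on the log2 scale, again with no overlap (exact permutation p = 0.1).

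One of those records is an alternative last exon of Col6a2, and its use rose. As background, the Col6a2 mRNA can end with either of 2 last exons, which replace each other after a shared exon and give different C-terminal ends. The junctions are shown, in the direction of transcription, with 30 bases of the shared exon before them (chr10:76603329-76603367, minus strand) in lower case and the first 60 bases of each last exon in capitals.
Col6a2 main end (last exon chr10:76595762-76596811, minus strand): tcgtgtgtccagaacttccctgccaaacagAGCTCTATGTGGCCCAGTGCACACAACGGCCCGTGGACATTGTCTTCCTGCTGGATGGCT
Col6a2 alternative end (last exon chr10:76597835-76599893, minus strand): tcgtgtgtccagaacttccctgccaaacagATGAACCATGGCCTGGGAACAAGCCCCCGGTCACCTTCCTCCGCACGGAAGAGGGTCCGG
Of the main last exon, 596 of 1050 bases are coding, and of the alternative one 293 of 2059, the rest being untranslated. The alternative exon measured 19.9, 23.2 and 22.5 RPKM at PND2 and 44.1, 41.2 and 52.1 RPKM at 4 months. All 4 month libraries were above all PND2 libraries, on 1358 to 3389 reads each. Relative to the gene, it stood at 14.2% ± 1.34 at PND2 and 27.5% ± 1.83 at 4 months (SD, n = 3), a log2 change in use of 0.96 (SE 0.07, limma adjusted p = 0.00041 over 224835 exon records). The main last exon stood at 153% ± 7.33 and 151% ± 8.01 of the gene, with a log2 change in use of -0.019 (limma adjusted p = 0.935). Since the gene RPKM is taken over all exons, the long records among them, these percentages are not shares of Col6a2 transcripts. The rise was called under every alternative setting run for the exon test, among them voom weights on the recovered reads (adjusted p = 0.00031). Among all exon records tested, 0.630% were called, and among the 351 of these collagens 3 were.

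Col6a3 carries alternative exons near its 5′ end that each encode a von Willebrand factor A-like domain of the N-terminal region. Exon 6 (chr1:90813215-90813814) measured 27.2, 34.3 and 31.8% of the gene at PND2 and 10.9, 20.2 and 17.6% at 4 months. Exon 3 (chr1:90827860-90828477) measured 3.84, 2.83 and 2.52% at PND2 and 5.36, 9.36 and 6.96% at 4 months. The ages did not overlap for either exon, which moved in opposite directions, but neither passed the test (log2 change in use -0.97, adjusted p = 0.0583 for exon 6, and 1.20, adjusted p = 0.0695 for exon 3, limma). Exon 6 passed with a pseudocount of 1 (adjusted p = 0.0382), with an exon minimum of 5 RPKM (0.0495), with the replicate block (0.0188), without PND2 replicate 1 (0.048), without 4 months replicate 2 (0.0411) and with limma's diffSplice (0.0238). Exon 3 passed without PND2 replicate 1 (0.0357) and with diffSplice (0.0238). With voom weights neither passed (adjusted p = 0.106 for exon 6 and 0.431 for exon 3). Exon 4 between them stood at 9.87% ± 1.44 and 12.3% ± 2.88 (SD, n = 3) and did not differ beyond its spread (limma adjusted p = 0.637). Exons 5, 7 and 8, which transcripts without exon 6 share, had log2 changes in use of -0.10, -0.038 and 0.0018.

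**Figure D3:**
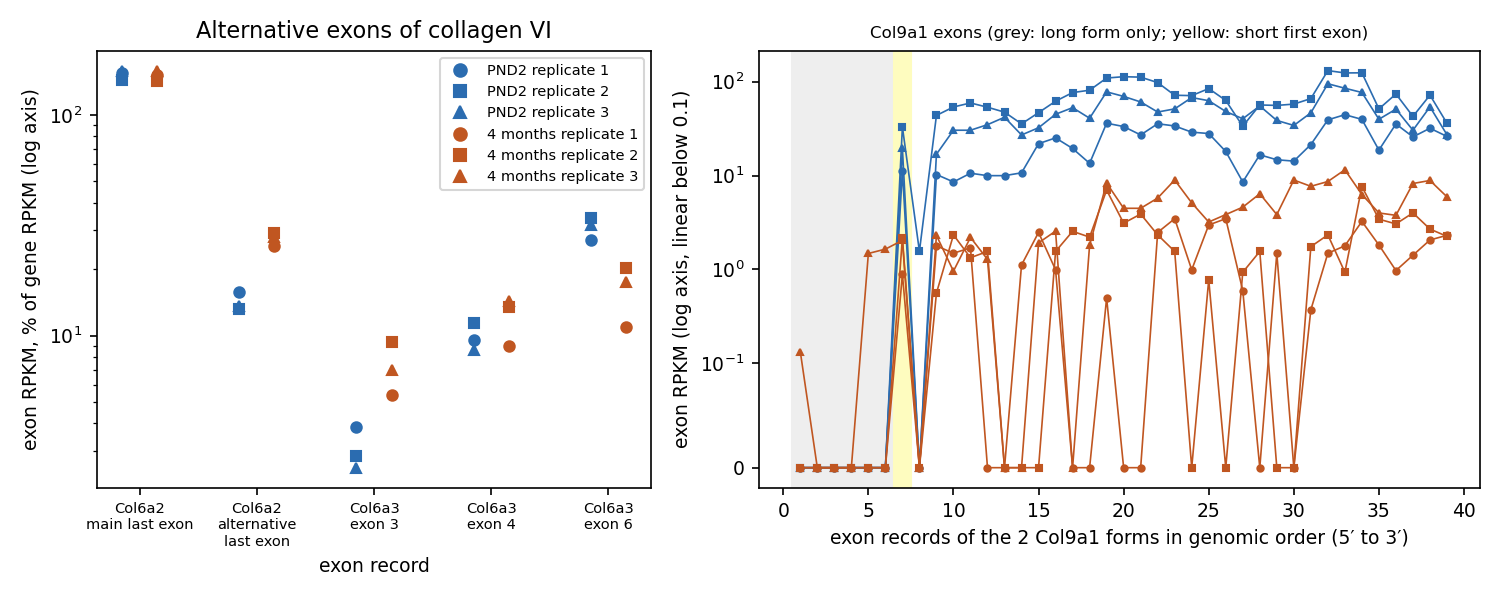
Left, RPKM of 5 alternative exon records as a percentage of the RPKM of their gene (log axis), with 1 marker per library, PND2 in blue and 4 months in orange. Right, RPKM of the exon records of the long and short Col9a1 forms in genomic order (axis linear below 0.1), with exons of the long form only in grey and the first exon of the short form in yellow. The alternative last exon of Col6a2 stands near 14.2% at PND2 and 27.5% at 4 months, and the grey exons of Col9a1 hold reads in 4 months replicate 3 only.

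The other exon records past the exon test were an exon of 60 bases in Col12a1 and one of 12 bases in Col6a3. Each reached the level set for the test only through the age at which it was high, so a difference was built into its selection, and its reads are given as a description. The Col12a1 exon (exon 5, chr9:79705562-79705621) held 47, 74 and 38 reads at PND2 and 1, 0 and 0 at 4 months. With voom weights its adjusted p was 0.978, and it could not be tested with any PND2 library left out. It lies near the 5′ end of the mRNA, where the exon RPKM of Col12a1 was lower. The log2 ratio of mean RPKM between the 1/3 of its exon records nearest the 5′ end and the 1/3 nearest the 3′ end was -2.57, -2.35 and -2.42 at PND2 and -2.57, -2.64 and -3.61 at 4 months. Over 7541 protein-coding genes the median of this ratio was -0.99, -0.78 and -0.79 at PND2 and -0.91, -0.88 and -0.95 at 4 months (exact permutation p = 0.4). What sets this ratio in Col12a1, and its part in the exon's values, was not tested. The Col6a3 exon (exon 35, chr1:90782217-90782228) held 0 reads in each PND2 library and 3, 8 and 4 reads at 4 months, and with voom weights its adjusted p was 0.835. It could not be tested with any 4 month library left out.

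Other chains of these types were mostly low. Of 3 further fibril-associated collagens in the table, Col20a1 rose from 1.15 ± 0.296 to 4.39 ± 1.06 RPKM (SD, n = 3, log2 change 1.85, limma adjusted p = 0.0022), and Col19a1 and Col22a1, at most 0.719 RPKM, were not called. Of the other collagen VI, VIII and X chains, 4 of 5 were tested. Col6a6, a collagen VI chain related to that of Col6a3, measured 33.8, 44.9 and 60.2 RPKM at PND2 and 16.3, 12.6 and 12.6 RPKM at 4 months and fell (log2 change -1.71, limma adjusted p = 0.0013), whereas Col6a5, Col8a2 and Col10a1 were not called. Col8a2, which encodes the partner chain of Col8a1, measured 7.15, 10.8 and 9.32 RPKM at PND2 and 8.10, 12.9 and 19.6 RPKM at 4 months.

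The fibril-forming chains on which these collagens sit fell for the most part: 7 of 11 were lower, 2 higher and 2 not called, with a median log2 change of -0.85 against -0.14 over all genes. The shares over all genes tested were 21.1% lower and 14.7% higher. Col1a1 changed by -0.86, Col1a2 by -0.56, Col3a1 by -0.77, and Col5a1 and Col5a2 by -1.35 each on the log2 scale. Col11a1, a chain of the cartilage fibril that carries collagen IX, measured 8.38, 12.1 and 9.39 RPKM at PND2. At 4 months it measured 0.402, 0.937 and 2.35 RPKM (log2 change -3.20, limma adjusted p = 0.0036). The order of its 4 month libraries was that of Col9a1, and also of Col12a1, Col8a1, Fn1 and Tnc. Col24a1, counted among the 7, measured 9.32, 19.0 and 9.91 RPKM at PND2 and 0.102, 0.0827 and 0.136 RPKM at 4 months, and it passed the filter on low values through its PND2 libraries. Col11a2 (1.66) and Col5a3 (1.94) rose, and Col2a1 and Col27a1 were not called.

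**Figure D4:**
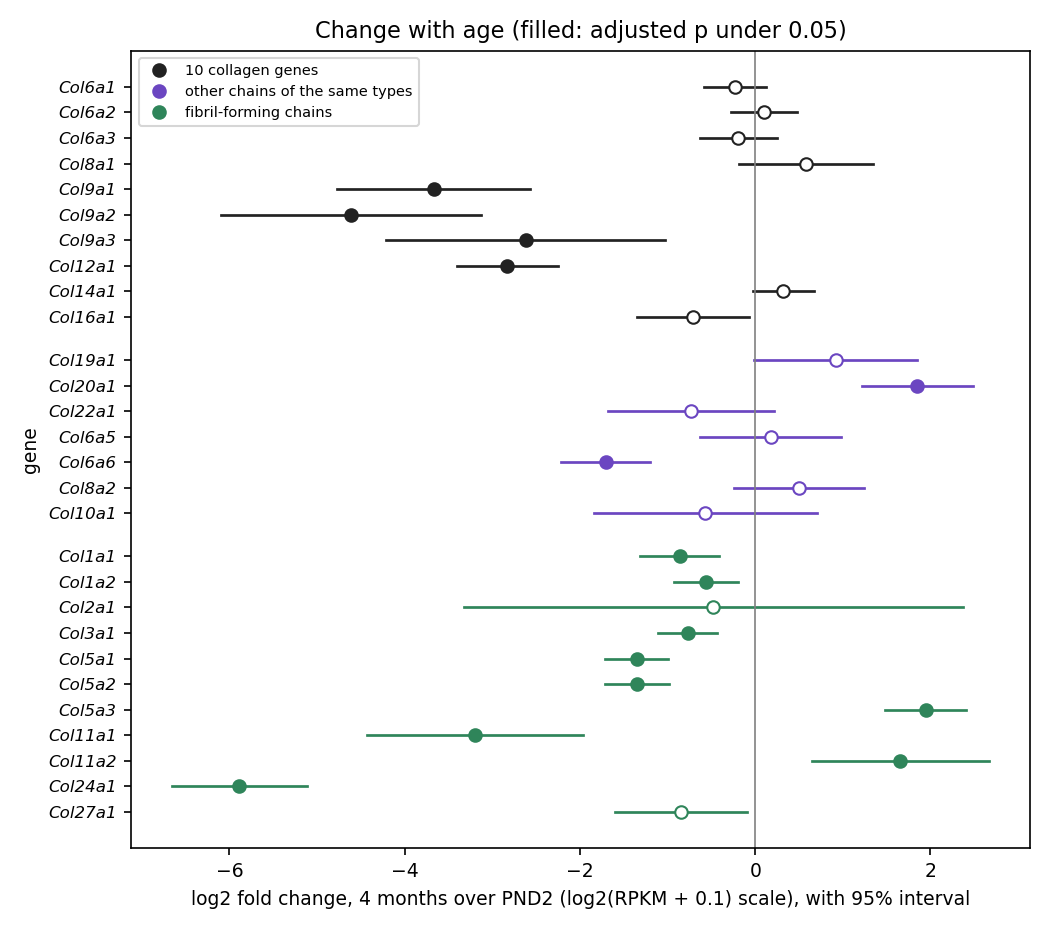
Log2 fold change from PND2 to 4 months with its 95% interval (horizontal axis) for the 10 collagens (black), other chains of the same types (purple) and fibril-forming chains (green), filled where the limma adjusted p was under 0.05. Filled black points are Col9a1, Col9a2, Col9a3 and Col12a1, all below 0, and the intervals of the 3 collagen VI genes include 0.

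Among 12 receptors of these and other collagens, 4 rose, 4 fell and 4 were not called, and the median log2 change was -0.022, against 14.7% higher, 21.1% lower and a median of -0.14 over all genes tested. Ddr2, a receptor tyrosine kinase for fibrillar collagen, rose (1.43) and its relative Ddr1 fell (-1.22). Itga10, the α10 integrin chain of cartilage cells, rose (1.19). Cspg4, a cell surface proteoglycan that binds collagen VI, rose (0.82), and Antxr1, whose protein binds collagen VI, fell (-0.72), while its relative Antxr2 was not called (-0.015). Lair1 rose (1.75), and Itga2 (-1.32) and Adgrg6 (-1.28) fell.

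Of 16 matrix proteins that link these collagens to fibrils or to other matrix, 14 were tested, and 9 rose, 4 fell and 1 was not called. The median log2 change was 0.91, against 14.7% higher, 21.1% lower and a median of -0.14 over all genes tested. Dcn (1.90), Bgn (1.42), Lum (1.13) and Fmod (1.12), small leucine-rich proteoglycans, rose together, and Comp had the largest rise (4.99). Tnxb, a tenascin known to bind collagens XII and XIV, rose (1.496), as did Vwa1 (1.52), Matn2 (0.42) and Tgfbi (0.71). Tnc, another tenascin, fell by 2.73, as did Nid1 (-1.72), Fn1 (-1.48) and Hspg2 (-0.55).

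Markers of other cells in the dissected tissue moved with age as well. For comparison, 14.7% of all genes tested were higher and 21.1% lower at 4 months. Smooth muscle markers rose in 9 of 10 genes, and their summed level, led by Acta2, was 7536, 8685 and 8711 RPKM at PND2 and 28367, 17173 and 20514 RPKM at 4 months. Endothelial markers, led by Pecam1 by mean level at both ages, fell in 9 of 10 genes (sums of 692, 539.6 and 754 RPKM at PND2 and 331, 332 and 307 RPKM at 4 months). Cardiomyocyte markers, led by Actc1 at PND2 and Myh6 at 4 months, fell in 4 of 10 (sums of 18216, 19092 and 20849 RPKM, and 7332, 11594 and 7536 RPKM). The 10 adipocyte markers summed to 299.8, 178 and 205 RPKM at PND2 and 617, 2278 and 705 RPKM at 4 months, with Lpl the most abundant by mean level at PND2 and Cfd at 4 months. Of these, 6 (Adipoq, Plin1, Cidec, Lep, Cfd and Retn) passed the filter on low values only through the 4 month libraries, where they are high, so that their difference was built into the selection, and Cidec, Lep and Retn were listed at 0 in the PND2 libraries. Of the other 4, Lpl and Car3 rose, and Fabp4 and Pparg were not called. Of 10 valve interstitial markers, led by Vim at PND2 and Dcn at 4 months, 4 rose, 3 fell and 3 were not called, and all were present in each library (sums of 4272, 4155 and 4045 RPKM, and 7709, 6674 and 8518 RPKM). The part of these cells in the collagen levels was not tested.

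The levels of the 10 genes were also compared with each other across the 6 libraries. As a description over 6 libraries that also differ by age, Pearson's r of log2(RPKM + 0.1) was 0.99 between Col9a1 and Col9a2, 0.98 between Col9a1 and Col12a1 and 0.95 between Col9a1 and Col9a3. It was 0.90 between Col9a3 and Col12a1, 0.91, 0.86 and 0.85 between Col16a1 and Col9a3, Col9a1 and Col9a2. Col6a1 was at 0.94 with Col16a1 and at 0.70, 0.70 and 0.74 with Col9a1, Col9a2 and Col9a3. Col14a1 was at -0.69 with Col12a1 and at -0.67, -0.71 and -0.70 with the same 3 genes. Of 10613 protein-coding genes with a mean of at least 5 RPKM, those most like Col9a1 were Fn1, Plscr1 and Tnc (r of 0.999, 0.997 and 0.997). Col9a2 was nearest to Tmed1, Timm22 and Mfsd11, Col9a3 to Ptx3, Enc1 and Scx, and Col12a1 to Cct2, Cdk6 and Slc39a6. Col6a1 was nearest to Rap2b, Zfp746 and Zbtb17, Col6a2 to Trp53i13, Fam234a and Atn1, and Col6a3 to Atp6v0a2, Irgq and Fuk. Col8a1 was nearest to Spg7, Col8a2 and Fxyd6, Col14a1 to Ttc8, Trim32 and C1qtnf2, and Col16a1 to Srprb, Col27a1 and Phrf1. The lowest of these 30 correlations was 0.973. Within PND2, replicate 1 was the lowest library for all 10 collagens and replicate 2 the highest for 9, and within 4 months, replicate 3 was the highest for 9. Col1a1, Fn1 and Tnc had the same lowest and highest PND2 libraries, and Dcn and Lum did not. The share of all genes with this pattern was not computed.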

How the data were processed

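Per the labels and the study's methods, total RNA of pooled aortic valves was made into stranded libraries and sequenced. After quality filtering and trimming, the authors mapped reads to mm10 (TopHat2 2.1.0 in the submitters' processing notes, which also name R 3.2.2), and ran easyRNASeq on an Ensembl annotation for read counting. The authors deposited RPKM values for 46983 genes and 448141 exon records, of which 387776 differ in gene and position. Each RPKM multiplied by length and library total gave whole reads (within 0.01) in 100% of values, which served for limits of detection and for voom. Whether counting used strand was not given in the sources used here. Of 4 genes that overlap the collagens, none exceeded 0.362 RPKM.

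All genes that reached 0.1 RPKM in at least 3 of the libraries were compared with limma 3.58.1 (R 4.3.3, data.table package 1.17.8) on log2(RPKM + 0.1), with a trend of variance on level, 2-sided and Benjamini-Hochberg adjusted over all genes. The pseudocount understates the change of low genes. The form of test in the study's methods, for each gene alone with unequal variances, served as an alternative. It took the values and filter used here, without the study's floor or read filter. Its threshold was an adjusted p under 0.05 with no fold change limit, where the study gave a total at an FDR under 0.1. For gene ontology the study took an FDR under 0.05 with a fold change limit. Exon use was tested with limma on the log2 ratio of exon to gene RPKM, for exon records at 1 RPKM or more in 3 libraries, of genes at 1 RPKM or more in all, called at an adjusted p under 0.05 and a change over 1.5 times. Ratios within a library were compared with an exact permutation test. Coverage along transcripts used protein-coding genes with at least 10 exon records and a mean of at least 5 RPKM. Figures were drawn in matplotlib 3.10.9, and other steps used scipy 1.17.1, pandas 2.3.3 and numpy 2.4.6 under Python 3.11.15. Both tests were tested on simulated data. The alternatives were other pseudocounts, filters, scalings and models, voom, diffSplice, the replicate block and leaving out each library.

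The 10 collagens, the lists of partner, receptor and marker genes and the tests were chosen with earlier results of these data known. Named are the 10 collagens and list genes that were called or are described. Also named are the 3 most similar genes of each collagen and exon records past the exon test. Col6a3 exons 3, 4 and 6, the start exons of Col9a1 and the cartilage marker sum without Comp were chosen after their values were seen. Col21a1 and Ahsp were not analysed here, and Cnmd was matched by its Ensembl identifier. The labels call the libraries biological replicates, and p-values measure the spread between these pools. RefSeq promoter windows matched 7 of the 10 genes; Col9a3, Col12a1 and Col14a1 had none.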

Additional observations from a re-analysis of the deposited data

How the results depend on the processing

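Of 160 fold changes of the 10 collagens recomputed under 16 alternative settings, 150 kept their direction and their side of the threshold, 6 lost the call, 3 gained it and 1 reversed. The reversal was Col6a2, not called in either fit, at -0.041 without PND2 replicate 1 (range -0.041 to 0.22 with a library left out). The calls lost were those of Col9a2 and Col9a3 given above and of Col9a3 with values of 10 reads or fewer floored (limma adjusted p = 0.156), and those gained were of Col14a1 and Col16a1. The form of test in the study's methods, run on the values, filter and threshold used here, called 2 of the 10 collagens and 3408 genes. Flooring called 5820 genes, and the main fit called 9273. The cause of these differences was not tested. Leaving out each library in turn gave 3 to 5 of the 10 collagens and 6301 to 8581 genes. Called exon records of the collagens numbered 3, and 7 with diffSplice, 1 with voom weights, and 1 to 7 with each library left out (6 without 4 months replicate 1, 7 without 4 months replicate 2, 1 without 4 months replicate 3). All exon records called numbered 1416, 3058 with diffSplice and 612 to 1730 with a library left out. With a library left out, 10 to 11 of the 12 ratios separated the ages, a count that leaving out a library cannot lower. The coverage difference between the ages, -0.061, ran from -0.13 to -0.025 with a library left out, and this alternative and the shortened Col6a2 were chosen after seeing the data.

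Same-numbered libraries of the ages did not deviate together (correlations of 0.044, -0.061 and -0.16). Differently numbered libraries gave -0.18 to 0.23. With 3 libraries per age such correlations cannot exclude a pairing. With the replicate number as a block, 7167 genes, the same count of 4 collagens and 4 of their exon records were called, the added record being Col6a3 exon 6 (limma adjusted p = 0.0188). For the ratios, whose differences the block leaves as they are by construction, the smallest exact sign-flip p of 3 pairs is 0.25. Col9a2 at 4 months rests on as few as 19 reads in a library, which limits its fold change.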

Other observations

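Markers of 2 further cell types were measured, where 14.7% of all genes tested were higher and 21.1% lower at 4 months. Macrophage markers rose in 8 of 10 genes, with Lyz2 the most abundant and summed levels of 385, 342 and 369 RPKM at PND2 and 1176, 1082 and 1111 RPKM at 4 months. Of the red cell genes, 5 were tested, and the lowest limma adjusted p was 0.107, for Hbb-bt with a log2 change of -0.85. The summed level of this list, led by Hba-a2, was 2599, 2516 and 1865 RPKM at PND2 and 749.6, 2158 and 1408 RPKM at 4 months.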
